A study of Mus musculus with 9 samples.

Results

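The PI3K-like kinases are a small family of very large proteins, and their 6 mouse genes, *Atm*, *Atr*, *Prkdc*, *Mtor*, *Smg1* and *Trrap*, were followed through RNA-Seq of mouse embryonic fibroblasts (MEFs). They were picked by gene name, with earlier results of these data known, and are 6 of the 24341 genes counted in each sample. All 6 passed the filter on low counts in every comparison. The family is named after its kinase domain, which resembles that of the lipid kinase PI3K but phosphorylates proteins. Atm is switched on by DNA double-strand breaks, Atr by single-stranded DNA at stalled replication forks, and the product of *Prkdc*, DNA-PKcs, joins broken ends together with the Ku proteins. Mtor drives growth when nutrients are present, Smg1 phosphorylates Upf1 during the decay of mRNAs with premature stop codons, and Trrap has lost its kinase activity and holds histone acetyltransferase complexes together.

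The samples were untreated MEFs of 3 genotypes, with 3 samples of wild type (WT), 3 labelled *Atm-/-* and 3 labelled *Sirt6-/-*, all of C57BL/6 background. *Sirt6* encodes a nuclear NAD+-dependent deacylase, and the study asked how it acts together with Atm. The growth protocol in the labels also lists *P53-/-* and *Atm-/-P53-/-* mice, and the study's methods list immortalized *Atm-/-; p53-/-* cells and *Sirt6-/-* cells obtained from separate laboratories, without saying which of them were sequenced. Genotype, p53 status and line of origin therefore cannot be told apart. Nothing says that the 3 samples of a genotype came from separate embryos or cultures, so p-values measure only the spread between these samples.

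The targeted genes gave opposite answers. *Sirt6* had 487, 402 and 472 counts in WT and 4, 5 and 7 in *Sirt6-/-*, where its log2 fold change was -6.43. *Atm* had 1536, 1617 and 1627 counts in WT and 3768, 3564 and 3443 counts in the libraries labelled *Atm-/-*, against the direction of the label. A gene count does not show which exons carry the reads, and an allele with a deletion or early stop can still give reads, so *Atm* counts do not check this label. *Trp53*, the gene of p53, had 6563 to 7108 counts in WT, 806 to 946 in the libraries labelled *Atm-/-* and 9081 to 9218 in *Sirt6-/-*.

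Depth was even, with 32187040 to 33837949 counts per sample, so that 3 counts stood for 0.0887 to 0.0932 CPM (counts per 1000000). Fibroblast markers were present in all 9 samples, but their summed level differed: 27673 to 30801 CPM over 11 genes in WT, 8747 to 9008 in the libraries labelled *Atm-/-*, where *Lum* was at 0, and 18774 to 19182 in *Sirt6-/-*. Summed epithelial markers were at most 48.5 CPM, endothelial markers at most 12.5 and haematopoietic markers at most 12.1 in any sample. Summed muscle markers were at most 1.52 CPM, with *Myog* at 0 in all 9 samples. The part of these marker and *Trp53* differences in the values of the 6 genes was not tested. Normalized CPM below use TMM (trimmed mean of M-values) factors, which put the median log2 fold change of all genes at 0.015 for the libraries labelled *Atm-/-* against WT and at 0.024 for *Sirt6-/-* against WT. Scaled by library totals instead, those medians moved to 0.18 and 0.11. In bulk RNA, fewer cells of a type and less RNA per cell cannot be told apart.

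Of the 6 family genes, *Atm*, *Mtor* and *Trrap* were higher in the libraries labelled *Atm-/-* than in WT, *Prkdc* and *Atr* were lower, and *Smg1* was not called. The call for *Atr* rested on a small difference and was absent with library totals. In *Sirt6-/-*, *Atm*, *Prkdc*, *Mtor* and *Trrap* were higher than in WT and none was lower. *Prkdc* was thus the one member called in opposite directions in the 2 sets of libraries. A call means an adjusted p under 0.05 in edgeR's quasi-likelihood test, adjusted over all genes tested.

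These counts sit on a high background. Against WT, 68.4% of the 13283 genes tested were called in the libraries labelled *Atm-/-* (34.7% higher and 33.6% lower) and 76.6% of 13206 genes in *Sirt6-/-* (39.2% higher and 37.4% lower). Between both knockouts it was 75.8% of 13460 genes (38.0% higher and 37.8% lower). Of the genes called in the libraries labelled *Atm-/-* against WT, 50.8% were higher with TMM and 64.9% with library totals. Library totals called 71.4% of all genes there (46.3% higher and 25.0% lower), 76.6% in *Sirt6-/-* against WT (43.9% higher and 32.7% lower) and 76.0% between both knockouts (41.2% higher and 34.8% lower), and of the 6 members 4 were then higher and 1 lower, 5 higher and none lower, and 3 higher and 1 lower. With 5, 4 and 5 of 6 members called in the 3 comparisons, these counts are close to that background. The median log2 fold change of the 6 members was 0.20 in the libraries labelled *Atm-/-* and 0.39 in *Sirt6-/-* against WT, and 0.060 between both knockouts, beside 0.015, 0.024 and 0.0021 for all genes. By absolute size, only 3, 1 and 2 of the 6 members lay above the median of all genes tested in these 3 comparisons. The samples of both genotypes did not overlap for 5, 5 and 4 members, where 72.6%, 79.0% and 78.2% of all genes did not overlap.

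**Figure D1:**
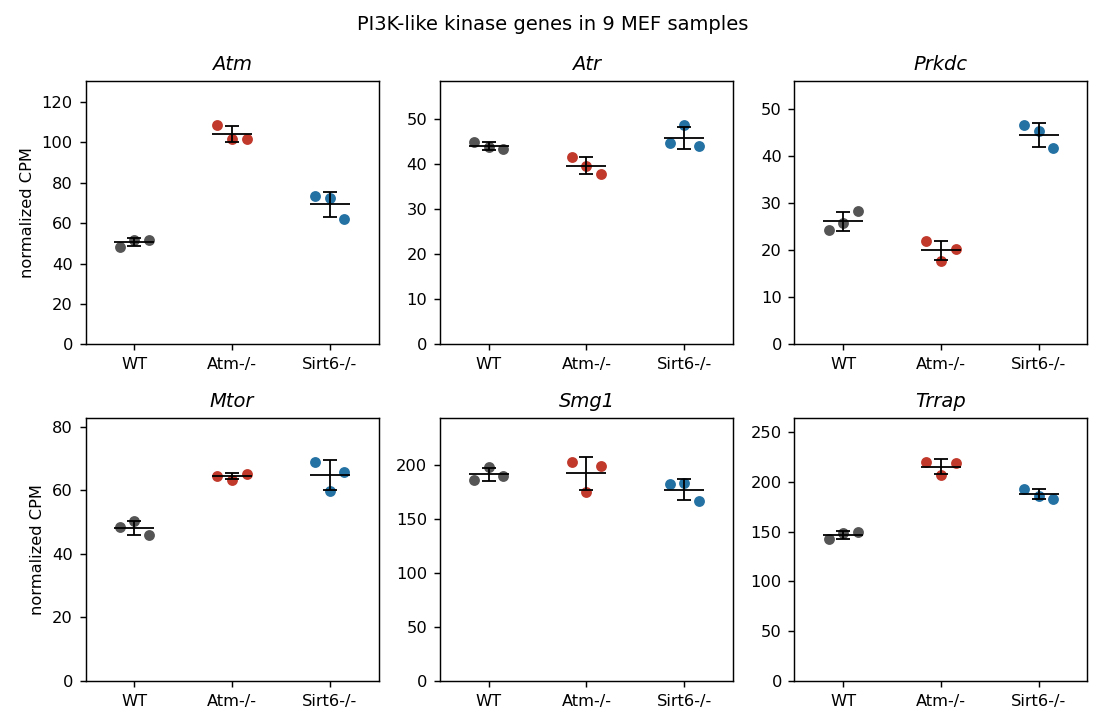
TMM-normalized CPM (vertical axes, starting at 0, with a scale of their own for each gene) of the 6 family genes in 9 MEF samples by genotype label, with points for samples, long bars for means and whiskers for SD (n = 3). *Atm* and *Trrap* are higher in both knockouts than in every WT sample, *Prkdc* is highest in *Sirt6-/-*, and *Atr* and *Smg1* move little.

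**Figure D2:**
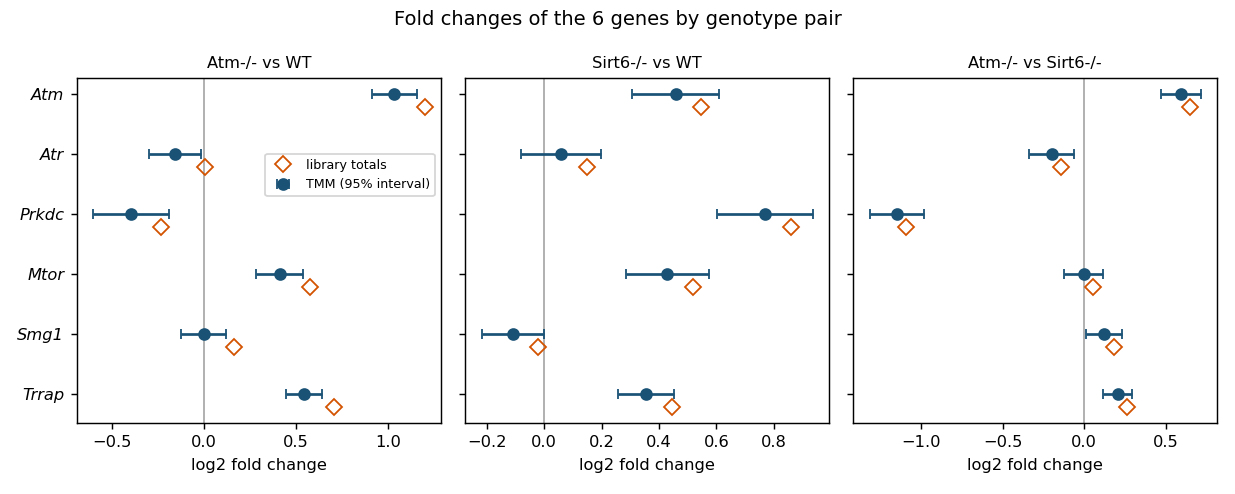
Log2 fold changes of the 6 genes (horizontal axes, differing between panels) for each pair of genotype labels, with filled circles and 95% intervals for TMM scaling and open diamonds for library totals. The diamonds lie to the right of the circles throughout, and for *Atr* and *Smg1* in the libraries labelled *Atm-/-* against WT they lie on the other side of 0.

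Levels of different genes were compared per length, as the deposited RPKM (reads per kilobase of gene and per 1000000 reads). In WT, *Smg1* at 11.6 ± 0.345 RPKM (SD, n = 3) and *Trrap* at 11.1 ± 0.319 were highest and overlapped between samples, followed by *Mtor* at 5.28 ± 0.232 and *Atr* at 5.14 ± 0.0907, which also overlapped. *Atm* stood at 3.98 ± 0.164 RPKM and *Prkdc* at 1.94 ± 0.154, each apart from its neighbours. None of the genes was rare or abundant: in WT their RPKM lay between the 28.3rd and the 57.8th percentile of 13757 genes.

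The order changed with genotype. In the libraries labelled *Atm-/-*, *Trrap* was highest at 18.1 ± 0.635 RPKM, ahead of *Smg1* at 13.0 ± 1.03, and *Atm* had moved up to the third place at 9.13 ± 0.362, above *Mtor* at 7.87 ± 0.108, *Atr* at 5.16 ± 0.252 and *Prkdc* at 1.65 ± 0.171. No neighbours in that order overlapped. In *Sirt6-/-*, the order ran *Trrap* at 15.1 ± 0.499, *Smg1* at 11.4 ± 0.668, *Mtor* at 7.56 ± 0.568, *Atm* at 5.80 ± 0.550, *Atr* at 5.69 ± 0.324 and *Prkdc* at 3.52 ± 0.219, with *Atm* and *Atr* overlapping. *Prkdc* was last in all 3 genotypes, and *Smg1* and *Trrap* were the first 2.

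Summed over the 6 genes, the family gave 38.2 to 39.8 RPKM in WT, 52.5 to 57.0 in the libraries labelled *Atm-/-* and 46.8 to 51.0 in *Sirt6-/-*. The share of each gene in that sum does not depend on how libraries are scaled against each other. *Atm* made up 10.2% of the family in WT, 16.6% in the libraries labelled *Atm-/-* and 11.8% in *Sirt6-/-*. *Prkdc* made up 4.98%, 3.01% and 7.17%, *Trrap* 28.4%, 33.0% and 30.7%, and *Smg1* 29.8%, 23.6% and 23.3%. *Atr* gave 13.2%, 9.41% and 11.6%, and *Mtor* 13.5%, 14.3% and 15.4%. Shares of 5 members did not overlap between WT and the libraries labelled *Atm-/-*, of all 6 between WT and *Sirt6-/-*, and of 4 between both knockouts. The shares of a sample are parts of one sum, so these are not separate results. *Atr* and *Smg1* had smaller shares in *Sirt6-/-* than in WT, although neither was called there. With 3 samples against 3, the exact permutation test cannot go below p = 0.1, and the smallest value after Benjamini-Hochberg adjustment over the 18 comparisons was 0.12.

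**Figure D3:**
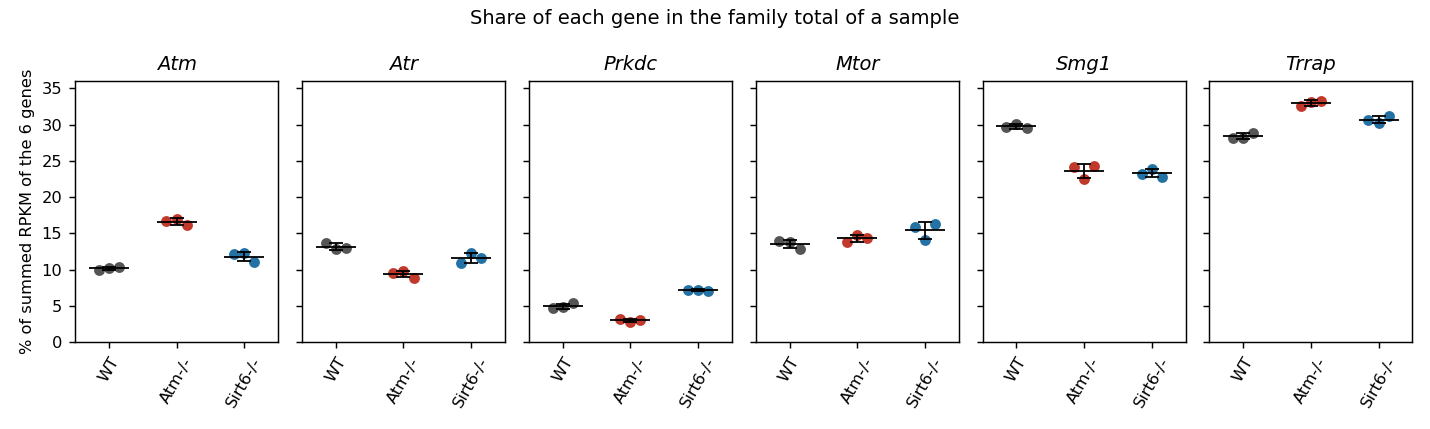
Share of each gene in the summed RPKM of the 6 family genes (vertical axis, percent, starting at 0) in each of 9 samples, with points for samples, long bars for means and whiskers for SD (n = 3). *Smg1* takes a smaller share in both knockouts than in WT, *Trrap* a larger one, and *Prkdc* falls in the libraries labelled *Atm-/-* and rises in *Sirt6-/-*.

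*Atm* lies on the minus strand at chr9:53439149-53536740 (GRCm38, GENCODE M21), head to head with *Npat*, a co-activator of histone genes. The stretch between the RefSeq starts of both genes is printed because their levels are compared across it, and it is read along the strand of *Atm*. It spans chr9:53536829-53536888 (GRCm38.p6, minus strand) and is 71.7% G and C over 60 bases. Capitals mark a GC box (GGGCGG) at bases 22 to 27 and a CCAAT box on the other strand (ATTGG) at bases 53 to 57, counted from the 5′ end.
Atm-Npat interval: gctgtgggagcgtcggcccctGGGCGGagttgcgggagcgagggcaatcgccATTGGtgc

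Both motifs are common. Searched on both strands, CCAAT was present in 37.4% and GGGCGG in 35.7% of 32851 RefSeq promoter windows of one length. TTTNNCGC, TGACGTCA and CCGGAAGT, the letters bound by E2F, CREB and ETS factors, were in 5.17%, 1.79% and 3.89% of windows, and none of these 3 matched in the windows of *Atm*, *Npat*, *Atr* or *Smg1*. Windows were found for 5 of the 6 members. All 5 held GGGCGG, while CCAAT was in those of *Atm*, *Mtor* and *Smg1*. TTTNNCGC matched once in the *Trrap* window, and CCGGAAGT once in the *Mtor* window.

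*Atm* rose in both knockouts. Its normalized level was 50.5 ± 2.02 CPM in WT (SD, n = 3), 104 ± 4.03 in the libraries labelled *Atm-/-* and 69.3 ± 6.20 in *Sirt6-/-*, where the counts were 2390, 2343 and 2072. No sample of one genotype overlapped another. The log2 fold change against WT was 1.04 ± 0.06 (SE) in the libraries labelled *Atm-/-* (edgeR adjusted p = 5.9e-10), a 2.05-fold difference against the direction of the label. Its size lay at the 77.6th percentile of all genes tested. In *Sirt6-/-* the log2 fold change was 0.46 ± 0.07 (edgeR adjusted p = 3.3e-05), at the 44.4th percentile of size. The direct fit put the libraries labelled *Atm-/-* above *Sirt6-/-* by 0.59 ± 0.06 (edgeR adjusted p = 1.1e-08).

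The rise was not shared by the neighbour across the interval. *Npat* had 2403, 2675 and 2771 counts in WT, 2677, 2597 and 2509 in the libraries labelled *Atm-/-*, and 2510, 2427 and 2203 in *Sirt6-/-*, and the genotypes overlapped. Its log2 fold change was -0.15 ± 0.06 in the libraries labelled *Atm-/-* (edgeR adjusted p = 0.0446) and -0.19 ± 0.07 in *Sirt6-/-* (edgeR adjusted p = 0.0261). Neither call was present with library totals, and both were lost when single libraries were left out, among them WT replicate 3 (adjusted p = 0.189 and 0.0844). The ratio of *Atm* to *Npat* RPKM was 0.361 to 0.393 in WT, 0.843 to 0.864 in the libraries labelled *Atm-/-* and 0.578 to 0.593 in *Sirt6-/-*, with no overlap. Nor did the surroundings of *Atm* rise: the 94 genes tested within 5 Mb of it had a median log2 fold change of -0.41 in the libraries labelled *Atm-/-* and 0.0061 in *Sirt6-/-* against WT. Over 720 genes of chromosome 9 these medians were -0.32 and -0.067.

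Genes that act with Atm were called in both directions. Of 17 activators and targets tested, 6 were higher and 8 lower in the libraries labelled *Atm-/-* (median log2 fold change -0.048, with 8 and 6 under library totals). Over all genes, 34.7% were higher and 33.6% lower there. In *Sirt6-/-*, 4 were higher and 9 lower (median -0.15), beside 39.2% and 37.4% of all genes. The MRN complex, which brings Atm to breaks, was uneven. *Rad50* was higher in the libraries labelled *Atm-/-* by 0.39 ± 0.06 with no call in *Sirt6-/-* (-0.0048). *Mre11a* fell in *Sirt6-/-* by 0.58 ± 0.07 with no call in the libraries labelled *Atm-/-* (-0.05). *Nbn* rose by 0.21 in the libraries labelled *Atm-/-* and had a log2 fold change of -0.17 in *Sirt6-/-* (edgeR adjusted p = 0.0495), a call lost with library totals and without WT replicate 3, *Sirt6-/-* replicate 1 or *Sirt6-/-* replicate 3. *Chek2*, the checkpoint kinase activated by Atm, fell in both, with 829 to 947 counts in WT, 534 to 674 in the libraries labelled *Atm-/-* and 396 to 419 in *Sirt6-/-* (log2 fold changes -0.65 and -1.17).

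Targets further along the p53 branch also differed. *Trp53* was lower by 3.09 in the libraries labelled *Atm-/-* and higher by 0.35 in *Sirt6-/-*. *Mdm2*, which encodes the ubiquitin ligase of p53 and is itself induced by it, had log2 fold changes of -0.40 and -1.11, and *Cdkn1a*, the p53-induced cell cycle inhibitor p21, of -1.16 and -2.30. *Mdm2* and *Cdkn1a* were thus lower in both knockouts. *Trp53* RNA is not a measure of p53 activity, and the part of p53 status in these values was not tested. *H2afx*, the histone variant phosphorylated by Atm at breaks, was at -0.56 and -0.50, while *Brca1*, a repair factor phosphorylated by Atm, was at 0.59 and 0.28, all called.

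**Figure D4:**
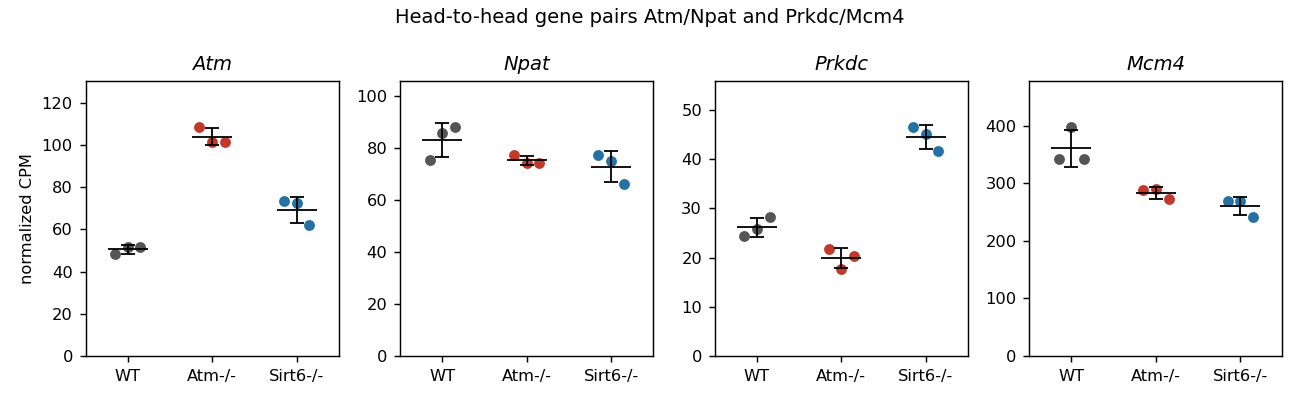
TMM-normalized CPM (vertical axes, starting at 0, with a scale of their own for each gene) of *Atm* and *Prkdc* beside the genes that start head to head with them, *Npat* and *Mcm4*, by genotype label, with points for samples, long bars for means and whiskers for SD (n = 3). *Atm* rises where *Npat* overlaps between genotypes, and *Prkdc* is highest in *Sirt6-/-* where *Mcm4* is lowest on average.

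*Atr* (chr9:95857597-95951781, plus strand) changed little. Its counts were 1434, 1370 and 1365 in WT, 1444, 1385 and 1283 in the libraries labelled *Atm-/-* and 1457, 1578 and 1469 in *Sirt6-/-*. In normalized CPM this gave 44.0 ± 0.845, 39.7 ± 1.88 and 45.8 ± 2.55 (SD, n = 3). Against WT, the log2 fold change was -0.16 ± 0.07 in the libraries labelled *Atm-/-* (edgeR adjusted p = 0.0444), but 0.0066 with library totals (adjusted p = 0.932), and the call was lost on leaving out any of 5 of the 6 libraries, the exception being *Atm-/-* replicate 1. In *Sirt6-/-* it was 0.06 ± 0.06 (edgeR adjusted p = 0.419, 95% interval -0.080 to 0.20), and 0.15 with library totals (adjusted p = 0.0494). The direct fit gave -0.20 ± 0.06 for the libraries labelled *Atm-/-* against *Sirt6-/-* (edgeR adjusted p = 0.00845), with no call under library totals (-0.14, adjusted p = 0.0542) or without *Sirt6-/-* replicate 2 (adjusted p = 0.0579). An antisense gene, *1700065D16Rik*, shares 726 exon bases with *Atr* and had at most 3 counts in any sample. The 39 genes tested within 5 Mb of *Atr* had a median log2 fold change of -0.42 in the libraries labelled *Atm-/-* and -0.24 in *Sirt6-/-* against WT. Over 720 genes of chromosome 9 these medians were -0.32 and -0.067.

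Of 14 partners and targets of Atr, 8 were higher and 1 lower in the libraries labelled *Atm-/-* (median 0.19), beside 34.7% and 33.6% of all genes. In *Sirt6-/-*, 1 was higher and 4 lower (median -0.053), beside 39.2% and 37.4% of all genes. *Atrip*, which brings Atr to single-stranded DNA, was called in neither (-0.13 and -0.08). *Etaa1*, the activator of Atr that binds the RPA complex, rose by 0.67 in the libraries labelled *Atm-/-* and stood at 0.14 in *Sirt6-/-*, called only with library totals. *Hus1*, a subunit of the 9-1-1 clamp, fell by 0.81 in *Sirt6-/-* and was at -0.06 with no call in the libraries labelled *Atm-/-*, and the clamp loader *Rad17* rose there by 0.47. *Tipin*, a fork protection factor, fell in both (-0.61 and -0.50). Proliferation genes differed along with these: all 11 of a list with *Ccnb1*, *Mcm2* and *Mcm7* were higher in the libraries labelled *Atm-/-* than in *Sirt6-/-*, where 38.0% of all genes were higher. *Mki67*, one of them, lost its call without *Sirt6-/-* replicate 3 (adjusted p = 0.0514) or *Atm-/-* replicate 1 (adjusted p = 0.0661). Their summed level was 4001 to 4066 CPM in the libraries labelled *Atm-/-* against 2802 to 2991 in *Sirt6-/-*, with 3421 to 3722 in WT. The part of proliferation in these differences was not tested.

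*Prkdc* (chr16:15637866-15842235, plus strand) separated the knockouts most among the members. It had 776, 806 and 892 counts in WT, 757, 622 and 688 in the libraries labelled *Atm-/-*, and 1519, 1464 and 1391 in *Sirt6-/-*. In normalized CPM, these were 26.1 ± 2.02, 20.0 ± 2.06 and 44.5 ± 2.52 (SD, n = 3), and no genotype overlapped another. Against WT, *Prkdc* was lower by 0.40 ± 0.10 in the libraries labelled *Atm-/-* (edgeR adjusted p = 0.00199, log2 fold change -0.40), a difference that shrank to -0.23 with library totals (adjusted p = 0.0424). In *Sirt6-/-* it rose by 0.77 ± 0.08 (edgeR adjusted p = 3.8e-07), 1.70-fold. The direct fit put the libraries labelled *Atm-/-* below *Sirt6-/-* by 1.15 ± 0.08 (log2 fold change -1.15, edgeR adjusted p = 3.8e-11).

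*Prkdc* starts head to head with *Mcm4*, a subunit of the replicative helicase, 465 bases away. *Mcm4* had 10917, 12457 and 10770 counts in WT, 10012, 10137 and 9213 in the libraries labelled *Atm-/-* and 8772, 8741 and 8059 in *Sirt6-/-*. It fell in both knockouts, by 0.36 ± 0.06 (log2 fold change -0.36) and 0.47 ± 0.06 (log2 fold change -0.47). The pair therefore went the same way in the libraries labelled *Atm-/-* and opposite ways in *Sirt6-/-*. The ratio of *Prkdc* to *Mcm4* RPKM was 0.0183 to 0.0235 in WT and 0.0174 to 0.0214 in the libraries labelled *Atm-/-*, and 0.0474 to 0.0490 in *Sirt6-/-*, above all others. In the libraries labelled *Atm-/-* the drop of *Prkdc* was of the size of its surroundings, since the median log2 fold change was -0.44 over 98 genes within 5 Mb and -0.46 over 387 genes of chromosome 16. In *Sirt6-/-* those medians were -0.011 and -0.11, and *Prkdc* went against them.

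Of 9 end joining partners of DNA-PKcs, 7 were higher and 2 lower in the libraries labelled *Atm-/-* (median 0.42). Over all genes, 34.7% were higher and 33.6% lower there. In *Sirt6-/-*, 4 of the partners were higher and 2 lower (median 0.088), beside 39.2% and 37.4% of all genes. Of the Ku proteins, which load DNA-PKcs onto DNA ends, *Xrcc5* rose in both (0.27 and 0.34), and *Xrcc6* rose by 0.36 in the libraries labelled *Atm-/-* with -0.13 and no call in *Sirt6-/-*. *Xrcc4*, the partner of DNA ligase IV, had 161, 173 and 173 counts in WT, 386, 354 and 397 in the libraries labelled *Atm-/-*, and 322, 297 and 289 in *Sirt6-/-* (log2 fold changes 1.03 and 0.79). The gap-filling polymerase gene *Poll* rose by 0.49 and 1.22, with 276 to 348 counts in WT, 443 to 493 in the libraries labelled *Atm-/-* and 732 to 761 in *Sirt6-/-*. *Lig4*, the ligase itself, rose by 0.48 in the libraries labelled *Atm-/-* and was at 0.09 with no call in *Sirt6-/-*.

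*Mtor* (chr4:148448611-148557683, plus strand) rose in both knockouts by similar amounts. Counts were 1546, 1571 and 1443 in WT, 2236, 2221 and 2211 in the libraries labelled *Atm-/-*, and 2251, 1932 and 2190 in *Sirt6-/-*. Normalized levels were 48.2 ± 2.22, 64.4 ± 0.956 and 64.8 ± 4.74 CPM (SD, n = 3). All 6 knockout samples lay above the 3 WT samples, and both knockouts overlapped. The log2 fold change against WT was 0.41 ± 0.06 in the libraries labelled *Atm-/-* (edgeR adjusted p = 2.25e-05) and 0.43 ± 0.07 in *Sirt6-/-* (edgeR adjusted p = 4.1e-05). Between both knockouts it was -0.0028 ± 0.06 (edgeR adjusted p = 0.968), with a 95% interval of -0.12 to 0.12. Its surroundings differed between the knockouts: over the genes tested within 5 Mb, the median log2 fold change against WT was -0.18 in the libraries labelled *Atm-/-* (73 genes) and 0.10 in *Sirt6-/-* (72 genes), and over chromosome 4 it was 0.089 (773 genes) and 0.33 (777 genes). *Mtor*, at 0.41 and 0.43, lay above each of these medians.

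*Angptl7*, a secreted angiopoietin-like factor, lies inside *Mtor* on the other strand at chr4:148495183-148500460 and shares no exon bases with it. It had 4792, 4217 and 3941 counts in WT, 313, 276 and 249 in the libraries labelled *Atm-/-* and 32, 29 and 49 in *Sirt6-/-*. Both knockouts thus had more *Mtor* and less *Angptl7* than WT, and the strand setting of the counting is not given in the sources used here. The genes on either side went their own ways. *Exosc10*, which follows *Mtor* after 745 bases, rose by 0.42 in the libraries labelled *Atm-/-* and stood at 0.02 in *Sirt6-/-*.

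The subunits of the mTOR complexes ranged widely. Of 8 subunit genes, 4 were higher and 3 lower in the libraries labelled *Atm-/-* (median 0.16), beside 34.7% and 33.6% of all genes. In *Sirt6-/-*, 4 were higher and 1 lower (median 0.14), beside 39.2% and 37.4% of all genes. *Rictor*, the defining subunit of mTORC2, had 2080, 2305 and 2178 counts in WT, 3357, 3289 and 3022 in the libraries labelled *Atm-/-* and 13709, 13437 and 13072 in *Sirt6-/-*. Its log2 fold change was 0.42 in the former and 2.56 in the latter, and the direct fit gave -2.13 for the libraries labelled *Atm-/-* against *Sirt6-/-* (edgeR adjusted p = 5.4e-20). *Deptor*, an inhibitor of both complexes, rose by 2.09 in the libraries labelled *Atm-/-*, where it had 789, 900 and 531 counts, against 128, 200 and 143 in WT and 140, 127 and 162 in *Sirt6-/-* (-0.19, no call). The direct difference was 2.30 (edgeR adjusted p = 2.55e-11).

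The mTORC2 subunit genes *Prr5* and *Prr5l* did not move as a pair. *Prr5l* fell in both, from 774 to 952 counts in WT to 413 to 437 in the libraries labelled *Atm-/-* and 114 to 175 in *Sirt6-/-* (log2 fold changes -1.20 and -2.65). *Prr5* fell by 0.95 in the libraries labelled *Atm-/-* and rose by 0.47 in *Sirt6-/-*. *Rptor*, which defines mTORC1, rose by 0.37 in the libraries labelled *Atm-/-* and by 0.19 in *Sirt6-/-*, the latter lost without WT replicate 1 (adjusted p = 0.0937). *Mlst8*, present in both complexes, was called in neither (-0.05 and -0.07).

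Among 18 genes that feed into mTORC1 or are its substrates, 3 were higher and 8 lower in the libraries labelled *Atm-/-* (median -0.0034, with 7 and 3 under library totals). Over all genes, 34.7% were higher and 33.6% lower there. In *Sirt6-/-*, 7 were higher and 9 lower (median -0.14), beside 39.2% and 37.4% of all genes. *Rheb*, the GTPase that activates mTORC1 at the lysosome, fell in both (-0.44 and -0.86), as did *Lamtor3*, a subunit of the Ragulator that anchors it there (-0.65 and -0.82), and the translation repressor *Eif4ebp1*, a substrate (-0.66 and -0.38). *Lamtor2* and *Rraga*, which act at the same site, rose in *Sirt6-/-* by 0.80 and 0.61 and were not called in the libraries labelled *Atm-/-* (0.06 and 0.01), where *Rraga* was higher with library totals.

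*Smg1* (chr7:118131308-118243670, minus strand) was the member with the most reads in WT and was not called against WT in either knockout. It had 5957, 6198 and 5996 counts in WT, 7058, 6131 and 6740 in the libraries labelled *Atm-/-*, and 5955, 5935 and 5556 in *Sirt6-/-*. Normalized levels were 192 ± 5.79, 193 ± 15.4 and 178 ± 9.48 CPM (SD, n = 3). The log2 fold change against WT was -0.0016 ± 0.06 in the libraries labelled *Atm-/-* (edgeR adjusted p = 0.983, 95% interval -0.12 to 0.12), but with library totals it was 0.16 and called (adjusted p = 0.0188). In *Sirt6-/-* it was -0.11 ± 0.05 (edgeR adjusted p = 0.0613) with no overlap between samples, and it was called without WT replicate 1 (adjusted p = 0.0354). The direct fit gave 0.12 ± 0.05 for the libraries labelled *Atm-/-* against *Sirt6-/-* (edgeR adjusted p = 0.0410) although samples overlapped, and the call was lost without *Sirt6-/-* replicate 3, *Atm-/-* replicate 1 or *Atm-/-* replicate 3 (adjusted p = 0.194, 0.212 and 0.142). The 51 genes tested within 5 Mb of *Smg1* had medians of -0.090 and -0.16 against WT in the libraries labelled *Atm-/-* and in *Sirt6-/-*. Over chromosome 7 these medians were 0.14 (918 genes) and 0.16 (911 genes).

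Smg1 works with a set of partners in nonsense-mediated decay. Of 9, 3 were higher and 2 lower in the libraries labelled *Atm-/-* (median 0.12), beside 34.7% and 33.6% of all genes. With library totals, 7 of the 9 were higher and none lower there. In *Sirt6-/-*, 2 were higher and 5 lower (median -0.27), beside 39.2% and 37.4% of all genes. *Smg8*, which binds Smg1, rose by 0.43 in the libraries labelled *Atm-/-* and was at 0.02 with no call in *Sirt6-/-*. The substrate *Upf1* was called in neither (0.12 and -0.07), though higher in the libraries labelled *Atm-/-* with library totals. *Upf3b*, the link to the exon junction complex, rose from 769, 877 and 796 counts in WT to 1582, 1550 and 1584 in the libraries labelled *Atm-/-* and to 1184, 1143 and 1248 in *Sirt6-/-* (log2 fold changes 0.81 and 0.50). *Upf2*, its bridge to Upf1, fell in both (-0.26 and -0.40), the first not called with library totals. Between both knockouts, 8 of the 9 were higher in the libraries labelled *Atm-/-* and none was lower, where 38.0% of all genes were higher and 37.8% lower. *Upf2*, one of the 8, lost its call without *Sirt6-/-* replicate 3, *Atm-/-* replicate 1 or *Atm-/-* replicate 2 (edgeR adjusted p = 0.0692, 0.0567 and 0.0708).

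*Trrap* (chr5:144767732-144859778, plus strand) rose in both knockouts. Its counts were 4531, 4656 and 4703 in WT, 7635, 7229 and 7407 in the libraries labelled *Atm-/-*, and 6296, 6024 and 6105 in *Sirt6-/-*. The 3 genotypes did not overlap in normalized level, at 147 ± 4.03, 215 ± 7.63 and 187 ± 5.16 CPM (SD, n = 3). The log2 fold change against WT was 0.54 ± 0.05 in the libraries labelled *Atm-/-* (edgeR adjusted p = 9.5e-08) and 0.35 ± 0.05 in *Sirt6-/-* (edgeR adjusted p = 6.1e-06). The direct fit put the libraries labelled *Atm-/-* above *Sirt6-/-* by 0.21 ± 0.04 (edgeR adjusted p = 0.000164). Around it, the 90 genes within 5 Mb had a median log2 fold change of 0.018 in the libraries labelled *Atm-/-* and 89 genes one of -0.15 in *Sirt6-/-*. Over chromosome 5 these medians were -0.013 (816 genes) and -0.12 (805 genes). *Smurf1*, the next gene, rose by 0.65 in the libraries labelled *Atm-/-* and was at -0.06 with no call in *Sirt6-/-*.

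Trrap is the scaffold of the Tip60/Ep400 and SAGA acetyltransferase complexes. Of 16 Tip60/Ep400 genes, 7 were higher and 1 lower in the libraries labelled *Atm-/-* (median 0.073), beside 34.7% and 33.6% of all genes. In *Sirt6-/-*, 6 were higher and 7 lower (median -0.026, with 7 and 6 under library totals), beside 39.2% and 37.4% of all genes. The enzyme *Kat5*, which also acetylates Atm, rose by 0.68 in *Sirt6-/-* and was called higher in the libraries labelled *Atm-/-* only with library totals (0.07 with TMM), and the ATPase *Ep400* fell by 0.30 in *Sirt6-/-* and was not called in the others (-0.08). *Morf4l1*, a reader of methylated histone H3, fell from 15677 to 16858 counts in WT to 9279 to 9700 in the libraries labelled *Atm-/-*, a log2 fold change of -0.91, against -0.19 in *Sirt6-/-*.

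Of 15 SAGA genes, 5 were higher and 6 lower in the libraries labelled *Atm-/-* (median -0.069, with 7 and 4 under library totals). Over all genes, 34.7% were higher and 33.6% lower there. In *Sirt6-/-*, 4 were higher and 5 lower (median -0.0095, with 6 and 5 under library totals), beside 39.2% and 37.4% of all genes. The alternative acetyltransferases of SAGA went apart. *Kat2a* rose by 0.39 in the libraries labelled *Atm-/-* and 0.17 in *Sirt6-/-*, whereas *Kat2b* fell from 3872, 3189 and 3806 counts in WT to 1458, 1309 and 1314 in the libraries labelled *Atm-/-* and 823, 674 and 752 in *Sirt6-/-* (log2 fold changes -1.55 and -2.32). *Ccdc101*, a histone reader of the complex, fell in *Sirt6-/-* from 516 to 623 counts in WT to 198 to 222 (log2 fold change -1.50), and was at -0.23 with no call in the libraries labelled *Atm-/-*. The deubiquitinase *Usp22* rose in both (0.47 and 0.49).

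All 6 proteins fold with the help of the Tel2-Tti1-Tti2 (TTT) complex, the R2TP complex and Hsp90. Of 9 such genes, 5 were higher and 4 lower in the libraries labelled *Atm-/-* (median 0.30, with 5 and 1 under library totals). Over all genes, 34.7% were higher and 33.6% lower there. In *Sirt6-/-*, 1 was higher and 6 lower (median -0.25), beside 39.2% and 37.4% of all genes. *Telo2*, whose product contacts the family proteins directly, fell in both. It had 1574, 1553 and 1516 counts in WT, 1217, 1356 and 1366 in the libraries labelled *Atm-/-* and 859, 779 and 826 in *Sirt6-/-* (log2 fold changes -0.37 and -0.97), while *Atm*, *Mtor* and *Trrap* rose in both. *Tti1* and *Tti2* were at -0.19 and -0.29 in the libraries labelled *Atm-/-*. Both calls were lost with library totals and without WT replicate 3, *Atm-/-* replicate 1 or *Atm-/-* replicate 3. The call for *Tti1* was also lost without WT replicate 1 and with replicate numbers as a block (edgeR adjusted p = 0.0909 and 0.0512). In *Sirt6-/-*, *Tti1* and *Tti2* were called higher only with library totals (0.08 and 0.19 with TMM). The R2TP subunit genes *Pih1d1* (0.69), *Rpap3* (0.49) and *Ruvbl1* (0.47) rose in the libraries labelled *Atm-/-*, and in *Sirt6-/-* their log2 fold changes were 0.41, -0.25 and -0.27, all called.

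**Figure D5:**
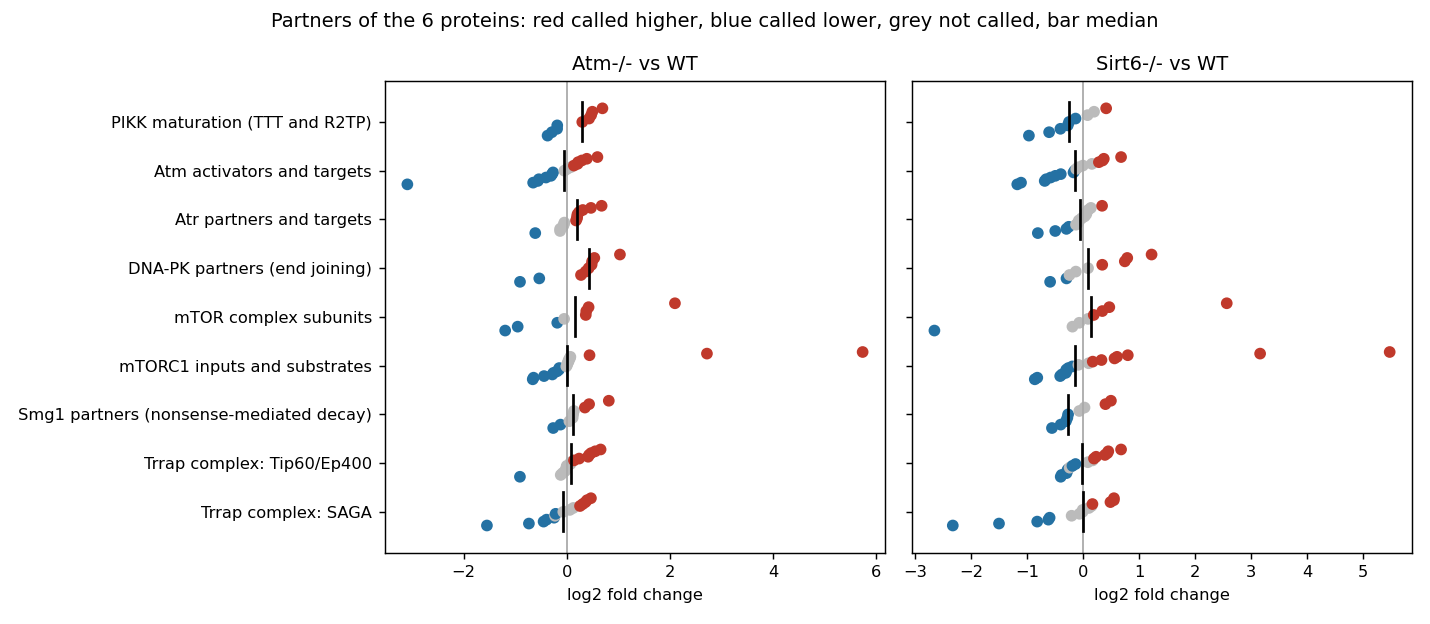
Log2 fold changes against WT (horizontal axes) of the genes in 9 lists of partners of the 6 proteins (rows), in the libraries labelled *Atm-/-* (left) and in *Sirt6-/-* (right), with a point per gene, red where called higher, blue where called lower, grey where not called, and a bar at each median. Genes of one list lie on both sides of 0 in every row, and list medians stay within 0.42 of 0.

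Over the 9 lists together, 112 genes were tested. In the libraries labelled *Atm-/-*, 46 were higher and 35 lower than in WT, or 59 and 19 with library totals, so that 72.3% were called beside 68.4% of all genes. In *Sirt6-/-*, 32 were higher and 46 lower (40 and 38 with library totals), 69.6% beside 76.6% of all genes. Both comparisons share the WT samples. In the direct fit, 63 were higher and 24 lower in the libraries labelled *Atm-/-* than in *Sirt6-/-* (68 and 20 with library totals), 77.7% beside 75.8% of all genes, of which 38.0% were higher and 37.8% lower.

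The genes most like each member across the 9 samples were found by the root mean square (RMS) difference of log2 CPM, each centred on its own mean, among 13756 other genes. They included *Pitrm1* and *Rsbn1* for *Atm* (RMS 0.0907 and 0.0930), and were *Tug1*, *Hs1bp3* and *Egln1* for *Atr* (from 0.0329), and *Marf1*, *Trappc12* and *Pgm3* for *Prkdc* (from 0.0776). For *Mtor* they were *Atp6v0a1*, *Smarcd1* and *Magoh* (from 0.0552), for *Smg1* *Pdzd8*, *Sfpq* and *Med20* (from 0.0224), and for *Trrap* *Ubr4*, *Clptm1l* and *Naa35* (from 0.0395). No member was among the 3 nearest genes of another. Within the family, *Mtor* and *Trrap* were closest at 0.104, followed by *Atr* and *Smg1* at 0.150 and *Atm* and *Trrap* at 0.219, while *Atm* and *Prkdc* were farthest apart at 0.763.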

How the data were processed

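RNA-Seq of 9 MEF samples, 3 per genotype label, was analysed. Each deposited file holds whole-number read counts per gene and the authors' RPKM with the gene length they used. The build was mm10 per the submitters' processing notes, and the aligner, counter and strand setting are not given in the sources used here. mm10 is GRCm38, so gene positions were read from GENCODE M21, and the sequence and promoter windows from RefSeq (GRCm38.p6).

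For each pair of genotypes, counts were filtered with filterByExpr, scaled with TMM and tested with edgeR 4.0.16 (glmQLFit, glmQLFTest; R 4.3.3), with Benjamini-Hochberg adjustment over all genes tested and a threshold of 0.05. Only the compared genotypes entered a fit. The two-sided exact permutation test (scipy 1.17.1) was used for shares. Scripts were tested on simulated counts. Alternatives were DESeq2 1.42.0 (Wald test, size factors), library totals, other filters, a replicate block, all 9 samples in one fit, a 2-fold threshold and each sample left out. The study's methods name no count test for these data.

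Members and gene lists were chosen with earlier results of these data known. Named besides the members were obligate partners, label checks, up to 4 called genes per list and comparison with the largest fold change (log2 CPM averaging 3 or more, samples not overlapping), and the 3 genes most like each member, of which 1 is not reported here. Neighbouring and overlapping genes of the members were named by position. *Paxx* is listed as *BC029214*. Within a genotype, samples differed by more than sampling noise (chi-square per gene 5.24 to 16.4), so none was counted as a duplicate. Intervals of fold changes come from the edgeR fits and include the spread between samples of a genotype. Floors from counts cover counting error only.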

Additional observations from a re-analysis of the deposited data

How the results depend on the processing

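Of 234 alternative fold changes of the 6 members, 197 kept direction and side of the threshold, 16 lost the call, 5 gained one and 16 changed sign. Of the sign changes, 1 was of *Atr* in the libraries labelled *Atm-/-* against WT, to 0.0066 with library totals. The others were of 2 values next to 0. *Smg1* in the libraries labelled *Atm-/-* against WT (-0.0016) was 0.16 with library totals, 0.0051 with DESeq2 size factors, 0.021 with at least 10 counts in every sample, 0.0059 with all 9 samples in one fit, 0.0045 with DESeq2's Wald test and -0.035 to 0.071 with a library left out. *Mtor* between both knockouts (-0.0028) was 0.056 with library totals, 0.0046 with DESeq2 size factors, 0.0074 with at least 10 counts, 0.0012 with no filter, 0.0055 with the Wald test and -0.059 to 0.044 with a library left out. In the libraries labelled *Atm-/-* against WT, the number of members lower, 2 with TMM, was 1 with DESeq2 size factors, library totals, at least 10 counts in every sample, no filter, a replicate block or DESeq2's Wald test, and 1 to 2 with a library left out. In *Sirt6-/-* against WT, it was 1 in place of 0 with DESeq2 size factors, no filter or the Wald test, and 0 to 1 with a library left out. Between both knockouts, it was 1 in place of 2 with library totals and 1 to 2 with a library left out. At a 2-fold threshold, 1 member was higher and 0 lower in the libraries labelled *Atm-/-*, 0 higher and 0 lower in *Sirt6-/-*, and 0 higher and 1 lower between both knockouts. Partners lower in the libraries labelled *Atm-/-* numbered 19 with library totals in place of 35. On TMM-scaled RPKM, 1 pair of neighbours in the WT order overlapped in place of 2. The cause of these shifts was not tested. Of 138 alternative counts, 114 stayed within 1.5 times.

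Samples with the same number hardly varied together, with correlations of deviations from the group means of -0.0201 to 0.0307. For different numbers the correlations were -0.0330 to 0.0224. Between both knockouts, same numbers gave 0.0179 to 0.0307 and different numbers -0.0318 to 0.0003. The numbers were used as names of samples, and as a block only in an alternative fit. With the replicate block, 1 member was lower in the libraries labelled *Atm-/-* because *Atr* had an adjusted p of 0.0613, and calls over all genes there went from 4611 higher and 4469 lower to 4482 and 4351. At this depth, 3 samples a genotype limit differences as small as those of *Atr* and *Smg1*, whose calls changed with single libraries.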

Other observations

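The lipid PI 3- and 4-kinases, the enzymes after which the family is named, gave 8 genes tested of 10 listed. In the libraries labelled *Atm-/-*, 2 were higher and 5 lower than in WT (median log2 fold change -0.38), beside 34.7% and 33.6% of all genes. In *Sirt6-/-*, 5 were higher and 3 lower (median 0.23), beside 39.2% and 37.4% of all genes. *Pi4ka*, the kinase that makes PI4P at the plasma membrane, was lower in both (-1.19 and -1.04), as was the catalytic subunit gene *Pik3cb* (-0.79 and -1.23). *Pik3cd*, a catalytic subunit gene best known in leukocytes, was lower by 1.51 in the libraries labelled *Atm-/-* and higher by 0.42 in *Sirt6-/-*. *Pik3c3*, the kinase of autophagy, rose in both (0.35 and 0.39). *Pik3c2b*, named here because of its values, was low in WT with 11, 9 and 8 counts. It had 237, 248 and 276 in the libraries labelled *Atm-/-* and 163, 143 and 164 in *Sirt6-/-*.

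Of 6 transcripts known to be targets of nonsense-mediated decay, 1 was higher and 4 lower in the libraries labelled *Atm-/-* than in WT (1 and 2 with library totals). Over all genes, 34.7% were higher and 33.6% lower there. In *Sirt6-/-*, 2 were higher and 3 lower, beside 39.2% and 37.4% of all genes. *Gadd45a* and *Gadd45b* were at -0.55 and -0.81 in the libraries labelled *Atm-/-* and at 0.81 and 0.38 in *Sirt6-/-*, all called. *Gas5* fell by 0.84 in *Sirt6-/-* and was not called in the libraries labelled *Atm-/-* (-0.17). *Ddit3* and *Atf4*, stress factors of the same list, were at -0.34 and -0.25 in the libraries labelled *Atm-/-*, calls that were lost with library totals, and fell by 0.85 and 0.38 in *Sirt6-/-*. The first of these was also lost without WT replicates 1 or 3 or *Atm-/-* replicates 2 or 3.

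*Rragb*, a Rag GTPase gene singled out here after its values were seen, had 8, 4 and 8 counts in WT, 396, 377 and 415 in the libraries labelled *Atm-/-* and 303, 332 and 300 in *Sirt6-/-*, with no overlap between WT and either. Its closest relative *Rraga* had log2 fold changes of 0.01 and 0.61.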
